A study of Mus musculus with 4 samples.

Results

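Microglia are the resident macrophages of the brain parenchyma, and border macrophages occupy the meninges, the choroid plexus and the perivascular spaces. The set described here holds 32 mouse genes that mark these cells, picked by symbol. They are genes of the homeostatic microglial state, the subunits of complement C1q, surface receptors with their signalling adaptors, lysosomal genes, myeloid transcription factors and border macrophage markers. All 32 of 32 were measured among 19938 genes, each by 1 probe set that carried exactly 1 gene symbol. Of the 32, 23 had a mean at or above 6.59 log2, the 40th percentile of gene means used as the filter for testing. The 9 below it were Gpr34, Fcrls, Fcgr3, Itgam, Ptprc, Spi1, Aif1, Mrc1 and Cd163. The defining microglial genes P2ry12, Tmem119 and Cx3cr1 passed, P2ry12 with a mean of 6.71 log2, close to the filter value.

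Hypothalamic RNA was profiled on 4 Affymetrix whole-transcript arrays in a pilot of a cancer cachexia model, in which the number of injected tumour cells was raised. The mice were males of the CDF1 hybrid (BALB/c x DBA/2), aged 10 to 11 weeks. C26 cells, a mouse colon adenocarcinoma line, were placed under the skin of the flank, and tissue was taken on day 20. The control array held pooled RNA of 4 mice sham-injected with 0.2 ml of buffered salt solution. The tumour arrays held pooled RNA of 4 mice given 500000 cells (0.5M), pooled RNA of 3 mice given 1000000 (1M) and RNA of 1 mouse given 2000000 (2M), whose title nonetheless calls it pooled. Cell number and pool size therefore cannot be told apart, each group was 1 array with no replicate, and a difference at 1 cell number has no replicate check. Across genes the arrays correlated at 0.993 to 0.997, and 9 of 10 markers fixed for the hypothalamus were measured, all 9 past the filter. Values are log2 expression after RMA, so a difference of 0.50 is a 1.41-fold ratio. Levels are compared between arrays for one gene, not between genes.

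In the healthy brain, microglia survey the tissue through purinergic and chemokine receptors and depend on signalling through the colony-stimulating factor receptor. They are the main source of C1q, which opens the classical complement cascade and tags material for engulfment. When microglia react to injury or inflammation, transcripts of the homeostatic state commonly decrease while those of phagocytosis and antigen handling increase.

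As a set, the members lay close to control at 0.5M and 1M, and many lay lower at 2M. Their median difference from control was -0.02 log2 at 0.5M, 0.01 at 1M and -0.12 at 2M, where the medians over all genes were -0.01, 0.07 and 0.03. At 2M, 24 of 32 members lay below control, against 43.7% of all genes, and 19 of 32 had their lowest value of the 4 arrays there, against 19.7% of all genes. Among genes past the filter these shares were 48.2% and 21.8%, and the members past it counted 17 and 14 of 23. At 0.5M and 1M, 16 and 15 members lay below control, against 51.7% and 36% of all genes. The counts at 2M come from 1 mouse and were chosen after the values were seen. In whole tissue, fewer cells of a type and less RNA per cell cannot be told apart.

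No member passed limma in the comparison of the 3 tumour-bearing arrays with the control array, where 0.0502% of the 11963 tested genes did (6 higher and 0 lower). The count was 0 of 23 at an adjusted p of 0.05 and 1 of 23 at an unadjusted p under 0.05, which 10.8% of all tested genes reached. In the limma test of a linear trend with cell number, 0% of tested genes and 0 of 23 members passed. At an unadjusted p under 0.05 the trend took 8 of 23 members, 6 with a negative and 2 with a positive slope, against 6.52% of tested genes. The lowest adjusted p of a member was 0.445 in the first test and 0.631 in the second. The cell numbers stand in for replicates in these tests, which have 2 residual degrees of freedom and treat the lone control array as varying like the others. The 2M mouse, the furthest in cell number, has the most weight in the trend.

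By size, 5 members lay at least 0.50 log2 below control at 2M and 0 lay that far above, against 1.23% and 1.78% of all genes. At 0.5M and at 1M, 0 members were that far from control in either direction, where 1.39% and 4.8% of all genes were. With 0.3 log2 in place of 0.50 the counts were 3, 4 and 9 at 0.5M, 1M and 2M, against 8.95%, 21.2% and 14.8% of all genes. The middle 95% of all genes ran from -0.41 to 0.46 log2 at 2M. Below it lay 7 members, namely Cx3cr1, P2ry13, Siglech, Itgam, Cd53, Laptm5 and Lyz2, and above it 0. At 0.5M only Gpr34 lay outside the middle 95%, and at 1M none of the 32 did.

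**Figure D1:**
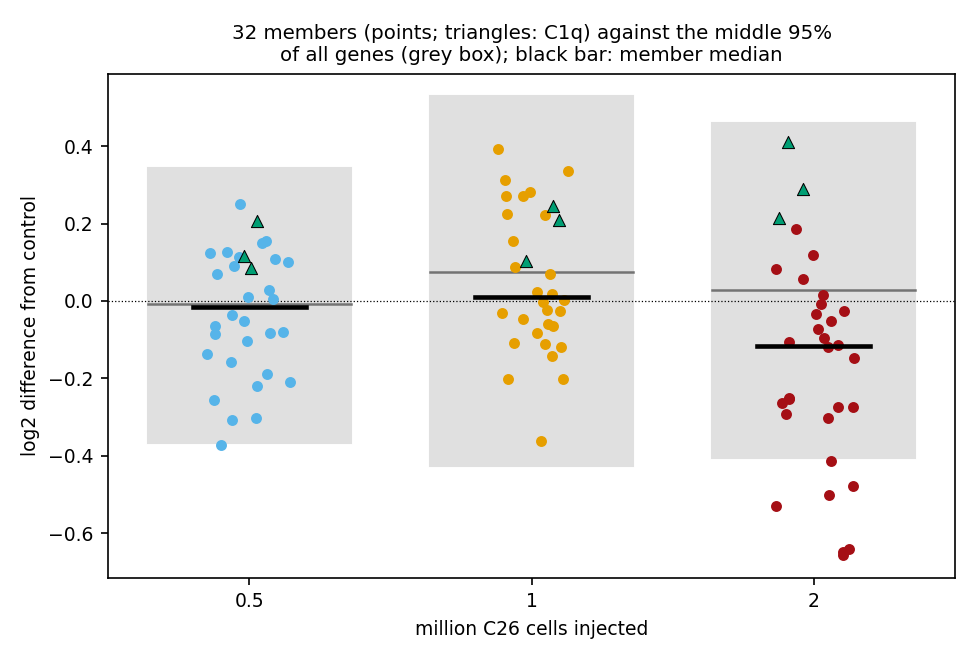
Difference from the control array (y axis, log2) of the 32 members at each cell number (x axis, 1 array each), with C1q genes as triangles, the member median as a black bar, the median of all genes as a grey line and the middle 95% of all genes as a grey box. At 2M 7 members lie below the box and the C1q genes lie at the top of the members.

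Genes of the homeostatic state were the largest group. Of its 11 members, 9 lay below control at 2M, 5 at 0.5M and 5 at 1M, against 43.7%, 51.7% and 36% of all genes. At 2M 9 were lower than at 1M, where 60.1% of all genes were. At 0.5M, 1M and 2M the median of the group was 0.01, 0.02 and -0.25 log2. In all 3 tumour arrays 1 was higher than control (Sall1) and 3 were lower (Cx3cr1, Tmem119 and Gpr34), against 33.2% and 22.5% of all genes.

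Cx3cr1, the receptor for the neuronal chemokine fractalkine, stood at 8.59 log2 in the control and at 8.34, 8.48 and 7.95 at 0.5M, 1M and 2M. It was below control in 3 of 3 tumour arrays, with the 2M mouse apart from the other 3 values, 1.56-fold under control. The limma estimate over the tumour arrays was -0.34 ± 0.20 log2 (SE, adjusted p = 0.554), the mean difference was -0.18 without the 2M array, and the slope was -0.29 ± 0.08 log2 per 1000000 cells (SE, limma adjusted p = 0.649). P2ry13, an ADP receptor, stood at 8.23 in the control and at 8.34, 8.46 and 7.58. Its values at 0.5M and 1M lay above control and that at 2M lay 0.66 log2 below it, a gap of -0.88 log2 between 2M and 1M. P2ry12, the ADP receptor that directs microglial processes to injury and the neighbour of P2ry13 on chromosome 3, stood at 6.65, 6.78, 6.99 and 6.40 in the order control, 0.5M, 1M and 2M, an order used for all series of 4 values below. Both purinergic receptor genes were highest at 1M and lowest at 2M.

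Siglech, a sialic acid-binding lectin of microglia, was also highest at 1M and lowest at 2M, at 7.12, 7.03, 7.21 and 6.64 log2, and lay 0.48 below control at 2M, just short of the 0.50 used for counting. Tmem119, a membrane protein used as a microglial marker, stood at 7.89, 7.59, 7.89 and 7.60, so that 0.5M and 2M lay about equally far below control and 1M did not. Selplg, which encodes the selectin ligand PSGL-1 and lies next to Tmem119 on chromosome 5, stood at 8.12, 8.19, 8.34 and 8.00. These neighbouring genes differed in direction at 0.5M. Olfml3, a secreted olfactomedin-like protein, and Sall1, the transcription factor that maintains microglial identity, lay nearest to control. Olfml3 stayed within 0.10 log2 of control and Sall1 within 0.07. Slco2b1, an organic anion transporter, stood 0.25, -0.02 and 0.08 log2 from control. Gpr34, a lysophosphatidylserine receptor, and Fcrls, an Fc receptor-like protein, were below the filter value. Gpr34 lay -0.37, -0.20 and -0.15 log2 from control and Fcrls 0.03, -0.03 and -0.27.

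The C1q genes lay on the other side of control. C1qa, C1qb and C1qc, which encode the chains of C1q and lie side by side on chromosome 4, were above control in 3 of 3 tumour arrays each, and each had its highest value at 2M. C1qc stood at 8.20, 8.41, 8.45 and 8.62 log2, a rank that follows cell number. The limma estimate was 0.29 ± 0.11 log2 (SE, adjusted p = 0.445, unadjusted p = 0.041), a 1.22-fold ratio, and the slope was 0.19 ± 0.06 log2 per 1000000 cells (SE, limma adjusted p = 0.732). C1qa stood at 7.19, 7.27, 7.40 and 7.48, also in the order of cell number, with a limma estimate of 0.19 ± 0.11 (SE, adjusted p = 0.542). C1qb stood at 9.19, 9.31, 9.30 and 9.41, with 0.14 ± 0.10 (SE, limma adjusted p = 0.601). Every tumour array lay above the control in these 3 genes, by 0.08 to 0.41 log2, inside the middle 95% of all genes. Over all genes 33.2% were higher in all 3 tumour arrays, 20.2% had their highest value at 2M and 6.07% were higher at each step of cell number. The 3 genes had a median of 0.12, 0.21 and 0.29 log2 at the 3 cell numbers.

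**Figure D2:**
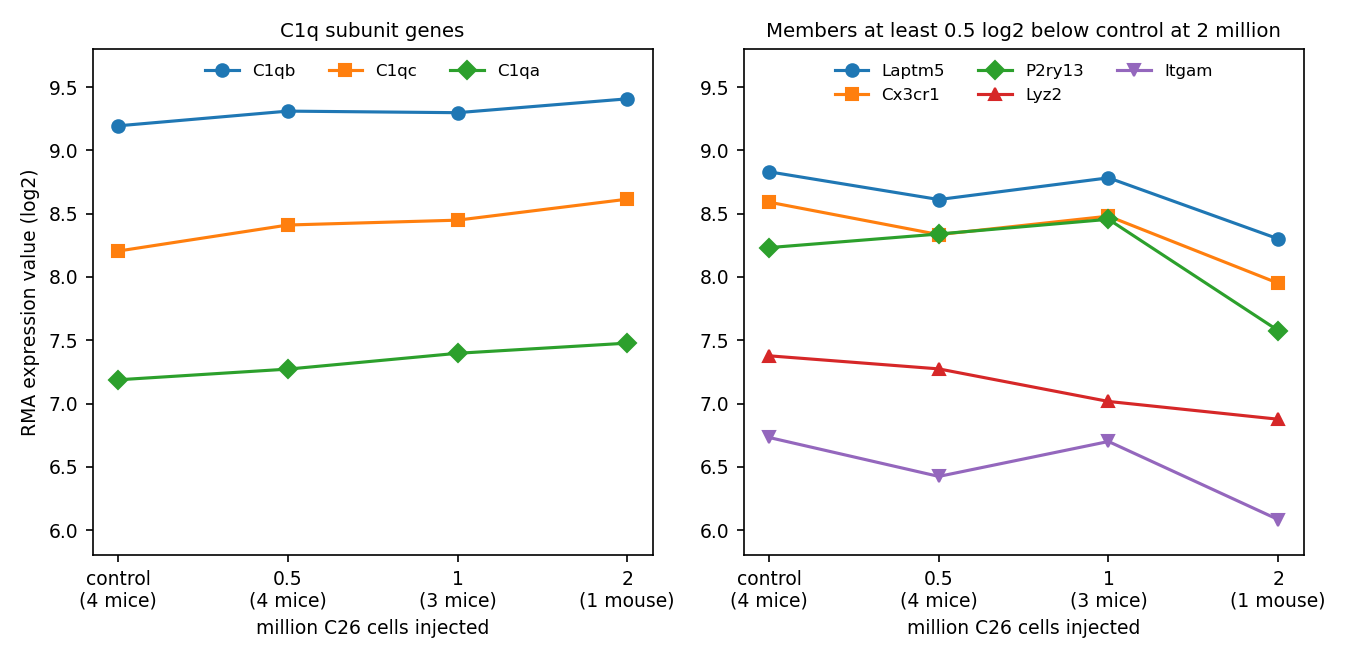
RMA expression value (y axis, log2, one scale for both panels) in the control and the 3 tumour-bearing arrays (x axis, cells injected, with the number of mice behind each array) for the C1q genes at left and for the 5 members at least 0.5 log2 below control at 2M at right. Each point is 1 array. The C1q genes are highest at 2M, where the 5 genes at right are lowest.

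The promoters of members on the opposite sides of this pattern were compared as sequence. PU.1, the factor encoded by the member Spi1, binds purine-rich sites with a GGAA core and is required for the development of microglia. The 250 bases before the RefSeq gene start (GRCm38.p6) are shown for C1qb and C1qc and for the 3 members furthest below control at 2M, in lower case from 5′ to 3′ on the strand of the gene. Capitals mark the letters GAGGAA, or TTCCTC where they lie on the opposite strand. The windows are chr4:136886201-136886450 on the minus strand for C1qb, chr4:136892915-136893164 on the minus strand for C1qc, chr3:59210883-59211132 on the minus strand for P2ry13, chr7:128062390-128062639 on the plus strand for Itgam and chr9:120068297-120068546 on the minus strand for Cx3cr1.
C1qb: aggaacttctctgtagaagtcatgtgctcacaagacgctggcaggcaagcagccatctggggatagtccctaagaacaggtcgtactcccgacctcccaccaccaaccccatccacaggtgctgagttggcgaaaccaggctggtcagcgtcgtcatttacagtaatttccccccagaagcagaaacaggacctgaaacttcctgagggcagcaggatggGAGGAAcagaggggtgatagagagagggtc
C1qc: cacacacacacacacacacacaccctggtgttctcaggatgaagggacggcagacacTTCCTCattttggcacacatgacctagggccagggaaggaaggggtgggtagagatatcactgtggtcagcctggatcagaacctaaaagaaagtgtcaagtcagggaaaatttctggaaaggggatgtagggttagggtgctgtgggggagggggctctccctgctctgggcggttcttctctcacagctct
P2ry13: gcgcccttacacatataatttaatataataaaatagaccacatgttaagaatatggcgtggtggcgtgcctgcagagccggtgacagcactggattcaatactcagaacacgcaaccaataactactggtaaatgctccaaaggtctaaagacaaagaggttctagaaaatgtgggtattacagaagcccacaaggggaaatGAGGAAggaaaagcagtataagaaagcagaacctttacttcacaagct
Itgam: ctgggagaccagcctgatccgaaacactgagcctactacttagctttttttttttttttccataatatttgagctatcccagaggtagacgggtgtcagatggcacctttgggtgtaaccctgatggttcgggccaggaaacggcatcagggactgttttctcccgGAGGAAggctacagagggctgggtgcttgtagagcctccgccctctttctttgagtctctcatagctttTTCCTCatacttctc
Cx3cr1: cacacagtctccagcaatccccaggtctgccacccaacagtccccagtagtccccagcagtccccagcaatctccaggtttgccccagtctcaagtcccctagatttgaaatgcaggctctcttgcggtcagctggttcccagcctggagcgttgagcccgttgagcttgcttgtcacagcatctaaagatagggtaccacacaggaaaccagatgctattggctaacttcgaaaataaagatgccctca

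The letters occurred in C1qb and C1qc, which lay above control, and likewise in P2ry13 and Itgam, which lay lowest at 2M. Cx3cr1 held no GAGGAA in this window, though it held the GGAA core, which was marked only within GAGGAA. C1qa had no promoter entry. Of the 25 members with an entry, 15 held GAGGAA on either strand within the 250 bases, which is 60% against 25.9% of all 27025 genes with an entry. Members and all genes with several windows were counted once if any window held it. The letters were 1 of 4 strings searched on both strands. GGAAGT, which can overlap GAGGAA, was in 10 of 25 members against 22.2% of all genes, GAGGAAGT, which contains both, in 1 against 2.79%, and the ETS-IRF composite element in 0 against 2.68%. These matches describe the letters and show no binding.

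Surface receptors and their adaptors split by gene. Of 8, 2 lay above control in all 3 tumour arrays (Fcer1g and Fcgr3) and 4 lay below (Tyrobp, Itgam, Ptprc and Cd53), against 33.2% and 22.5% of all genes. All 8 were lower at 2M than at 1M, where 60.1% of all genes were. Itgam, the alpha chain of complement receptor 3, stood at 6.73, 6.42, 6.70 and 6.08 log2. It was 0.65 log2 below control at 2M, a 1.57-fold ratio, 0.31 below at 0.5M and 0.03 below at 1M, and its mean was just under the filter value. Cd53, a tetraspanin of leukocytes, stood at 7.68, 7.47, 7.57 and 7.27 (limma estimate -0.24 ± 0.13, SE, adjusted p = 0.532), with a mean difference of -0.16 without the 2M array. Ptprc, the common leukocyte antigen CD45, stood at 6.18, 6.05, 6.12 and 5.91. In each of the 3 genes 1M was the tumour array nearest to control and 2M the furthest.

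Csf1r, the receptor for CSF1 and IL-34 on which microglial survival depends, stood at 8.82, 8.74, 8.82 and 8.57 log2, a difference of -0.25 at 2M. Trem2, a lipid receptor of phagocytic microglia, stood at 7.15, 7.25, 7.54 and 7.12. Its adaptor Tyrobp, which encodes DAP12, stood at 7.94, 7.78, 7.82 and 7.67 (limma estimate -0.18 ± 0.10, SE, adjusted p = 0.537). The receptor and its adaptor therefore lay on opposite sides of control at 0.5M and 1M. Fcer1g, the gamma chain shared by Fc receptors, was 0.15, 0.27 and 0.18 log2 above control (limma estimate 0.20 ± 0.10, SE, adjusted p = 0.488). Fcgr3, a low-affinity immunoglobulin G receptor that pairs with this gamma chain, was 0.16, 0.28 and 0.12 above. The Fc receptor genes were highest at 1M.

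Among the 5 lysosomal and phagocytic genes, 4 lay below control in all 3 tumour arrays, against 22.5% of all genes. At 2M 5 of 5 lay below control, against 43.7% of all genes. Lyz2, lysozyme of myeloid cells, stood at 7.38, 7.27, 7.02 and 6.88 log2 and was the 1 member lower at each step of cell number, a pattern of 3.7% of all genes. Its slope was -0.26 ± 0.06 log2 per 1000000 cells (SE, limma adjusted p = 0.631, unadjusted p = 0.0042), the lowest p of the members in the trend. Laptm5, a lysosomal membrane protein of haematopoietic cells, stood at 8.83, 8.61, 8.78 and 8.30, with 2M a 1.44-fold ratio under control. Cd68, a lysosomal glycoprotein of macrophages, lay -0.04, -0.20 and -0.11 log2 from control. Of the proteases, Ctsd was flatter than Cd68 and Ctss was not. Ctsd, the aspartic protease cathepsin D, which many brain cells express, lay -0.08, -0.08 and -0.05 from control, and Ctss, the cysteine protease cathepsin S, 0.09, 0.16 and -0.07.

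The transcription factors were nearest to control at 2M or 0.5M and highest at 1M. Spi1 lay 0.01, 0.27 and 0.06 log2 from control and Irf8, an interferon regulatory factor of microglia, 0.12, 0.31 and -0.01. The Spi1 difference at 2M changed sign between normalizations. Aif1, the calcium-binding protein Iba1 commonly stained to see microglia, stood at 5.42, 5.23, 5.27 and 5.11, below control in 3 of 3 tumour arrays. The border macrophage genes Mrc1, the mannose receptor, and Cd163, the haemoglobin scavenger receptor, were below the filter value. Mrc1 lay 0.11, -0.06 and -0.12 log2 from control and Cd163 -0.07, 0.02 and -0.03.

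**Figure D3:**
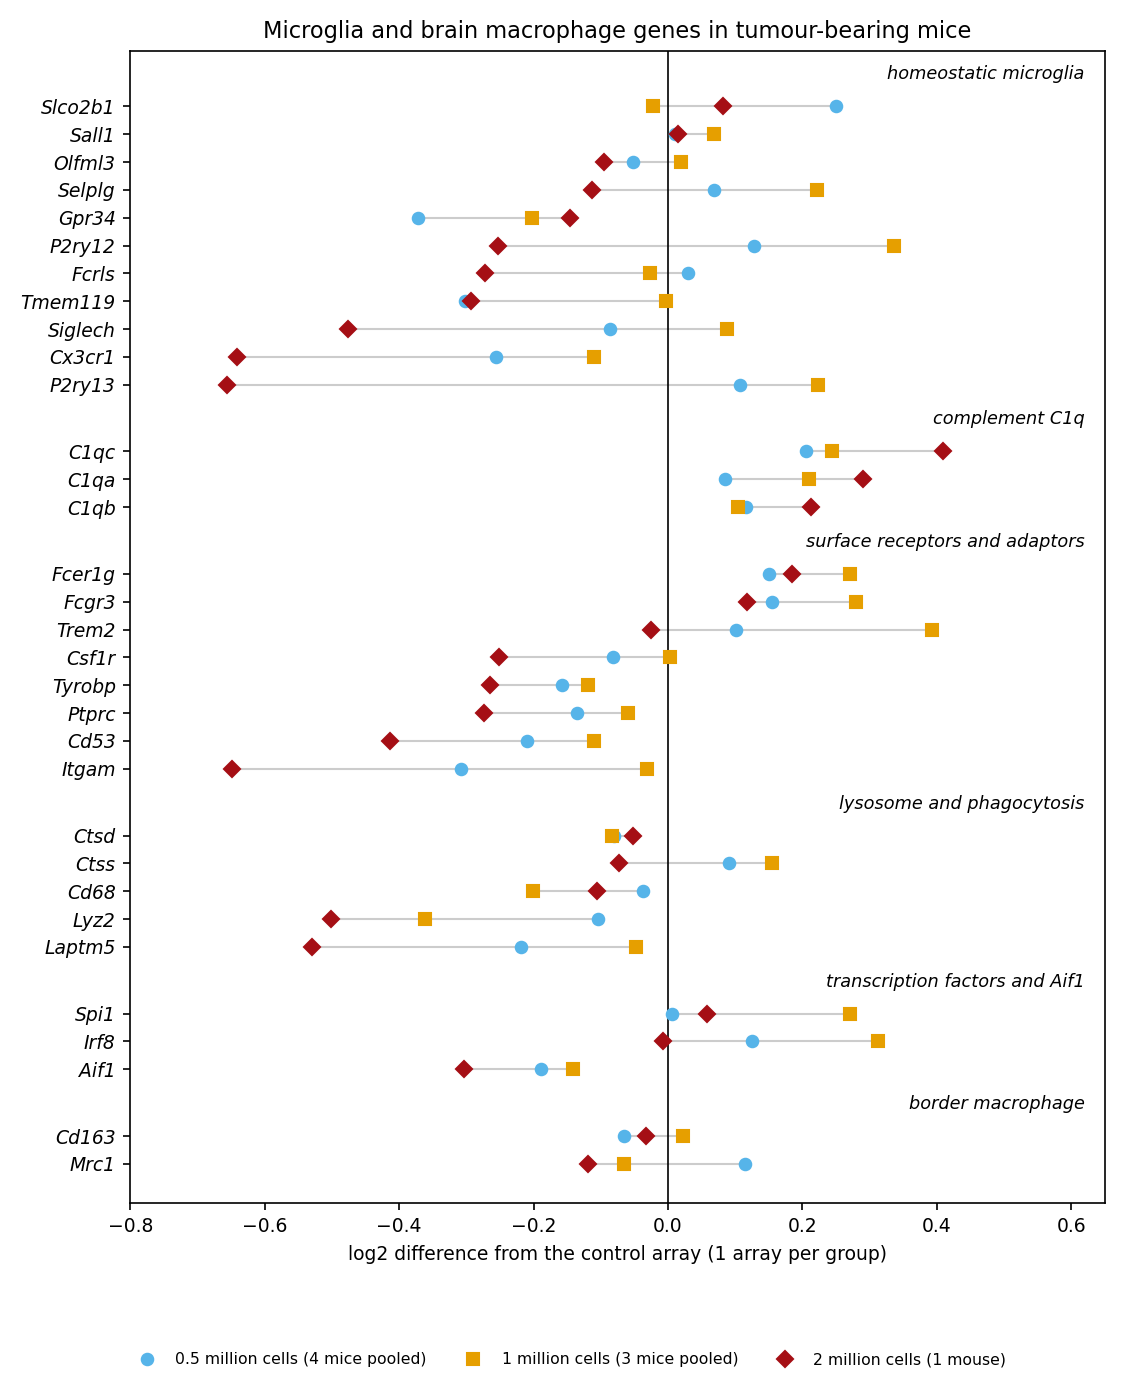
Difference from the control array (x axis, log2) of each of the 32 members (y axis, grouped by role and sorted by the value at 2M), with a circle for 0.5M, a square for 1M and a diamond for 2M, 1 array each. In the 3 C1q genes all symbols lie right of 0, and in 19 of 32 members the 2M array is the lowest of the 4 arrays.

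Over the 32 members, 7 were higher and 12 lower than control in all 3 tumour arrays, and the other 13 differed in direction. Over all genes 33.2% were higher and 22.5% lower in all 3. Without the 2M mouse, 13 were higher and 12 lower in both remaining arrays, and P2ry12, P2ry13, Selplg, Trem2, Ctss and Irf8 lay above control in those arrays and below it at 2M. The array at 1M was the highest of the 4 for 14 of 32 members, as it was for 42.6% of all genes.

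Other genes of microglia were set beside the members from lists chosen for their roles. Of 25 measured genes of the homeostatic state outside the set, 17 lay below control at 2M, against 43.7% of all genes. In all 3 tumour arrays 5 were higher and 6 lower, against 33.2% and 22.5% of all genes. The 4 named below, furthest from control on average, were all lower on average. At 2M 21 of the 25 lay lower than at 1M, against 60.1% of all genes. The medians of the 25 were -0.02, 0.03 and -0.03 log2 at 0.5M, 1M and 2M. Of the 18 past the filter, 0 passed limma. An unadjusted p under 0.05 was reached by 1 gene for tumour against control and by 2 for the trend, against 10.8% and 6.52% of all tested genes. Ly86, which encodes the MD-1 partner of the RP105 receptor, stood at 9.24, 8.85, 8.91 and 8.35 log2. It was below control in 3 of 3 tumour arrays, with a slope of -0.41 ± 0.08 per 1000000 cells (SE, limma adjusted p = 0.38). Lpcat2, a phospholipid-remodelling enzyme, stood at 8.16, 8.03, 7.92 and 7.53 (limma adjusted p = 0.385 in the trend). Unc93b1, a chaperone of endosomal Toll-like receptors, lay -0.34, 0.03 and -0.54 from control, and Slc2a5, a fructose transporter that was below the filter value, -0.34, -0.26 and -0.36.

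Genes of the disease-associated microglial state had medians of -0.05, -0.01 and -0.10 log2 over 22 measured genes. In all 3 tumour arrays 3 were higher and 9 lower, against 33.2% and 22.5% of all genes. Of the 12 past the filter, 0 passed limma. An unadjusted p under 0.05 was reached by 2 genes for tumour against control and by 1 for the trend, against 10.8% and 6.52% of all tested genes. Those furthest from control were mostly genes that other brain cells also express. Cd63, a tetraspanin of endosomes, lay -0.47, -1.02 and -0.69 log2 from control (limma adjusted p = 0.375), B2m, the invariant subunit of MHC class I molecules, -0.29, -0.71 and -0.54, and Ctsz, cathepsin Z, -0.28, -0.13 and -0.40. Ch25h, cholesterol 25-hydroxylase, below the filter value, lay 0.44, 0.64 and 0.56 above.

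Genes of inflammatory activation had medians of 0.04, 0.13 and 0.13 log2 over 22 measured genes, against -0.01, 0.07 and 0.03 over all genes. In all 3 tumour arrays 10 were higher and 2 lower, against 33.2% and 22.5% of all genes. Only 6 of the 22 passed the filter. Of these 0 passed limma, and 1 had an unadjusted p under 0.05 in each test, against 10.8% (tumour) and 6.52% (trend) of all tested genes. Hmox1, haem oxygenase 1, lay 0.44, 0.51 and 0.26 log2 above control (limma adjusted p = 0.375), Socs3, a feedback inhibitor of STAT3 signalling, 0.15, 0.55 and 0.40, and Ncf1, a subunit of the phagocyte NADPH oxidase, 0.10, 0.48 and 0.31. Il1a, below the filter value, lay -0.16, 0.07 and -0.79 from control.

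Ligands of microglial receptors lay close to control, with medians of 0.01, 0.11 and 0.02 log2 over 13 genes. Of the 10 past the filter, 0 passed limma, and 0 had an unadjusted p under 0.05 in the tumour comparison or the trend. Cd47, the signal that restrains engulfment through Sirpa, lay -0.15, -0.30 and -0.19 from control, and Gas6, a ligand of the Mertk and Axl receptors, 0.13, 0.23 and 0.15. Tgfb1, a cytokine that maintains the homeostatic state, lay 0.02, 0.24 and 0.20 from control and Csf3, below the filter value, 0.06, 0.15 and 0.23. The ligand of Cx3cr1 and those of Csf1r were looked up after the member values were known. Cx3cl1 lay within 0.10 log2 of control, Csf1 within 0.16 and Il34 within 0.08.

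Complement genes beyond C1q showed no common direction from control over the 3 tumour arrays. Of 13 measured genes 4 were higher and 5 lower in all 3 tumour arrays, against 33.2% and 22.5% of all genes. Like the C1q genes, 6 of the 13 had their highest value at 2M, against 20.2% of all genes. The genes named below were not among them. The medians of the 13 were -0.08, 0.10 and 0.14 log2. Of the 7 past the filter, 0 passed limma. An unadjusted p under 0.05 was reached by 1 gene in each test, against 10.8% (tumour) and 6.52% (trend) of all tested genes. C3ar1, the receptor for the C3a fragment and itself a microglial gene, lay -0.57, -0.59 and -0.23 log2 from control (limma adjusted p = 0.397). Serping1, the inhibitor of the C1 proteases, lay -0.36, -0.61 and -0.09. Masp1, a protease of the lectin pathway, lay 0.23, 0.34 and 0.12 above control, and Cfb, factor B of the alternative pathway, below the filter value, 0.12, 0.37 and 0.26.

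Markers of blood-borne cells were mostly under the filter value, 1 of 9 monocyte, 0 of 13 neutrophil and 0 of 11 lymphocyte genes reaching it, so their small differences rest on low signals. Ccr2, the chemokine receptor of inflammatory monocytes, stood at 3.73, 3.31, 3.60 and 3.54 log2, below control in all 3 tumour arrays. S100a4, also made by other cells, lay 0.48, 0.88 and 0.27 above, Fn1 -0.15, -0.28 and -0.19 and Chil3 -0.23, 0.05 and -0.42. The mean level of the monocyte list was 5.31, 5.23, 5.47 and 5.23. That of the neutrophil list was 5.11, 5.16, 5.30 and 5.28, with 7 of 13 higher and 0 lower in all 3 arrays, against 33.2% and 22.5% of all genes. Csf3r, S100a9, Il1r2 and S100a8 were 0.28, 0.25, 0.24 and 0.22 log2 above control on average. Lymphocyte genes had a mean level of 4.95, 4.87, 5.18 and 5.07, with Cd79b 0.34, Cd4 0.31, Cd3d 0.21 and Nkg7 -0.20 log2 from control on average. In the erythroid list 3 of 7 genes were measured, with Alas2 0.85, Slc4a1 0.26 and Epb42 -0.02 from control. The part of blood cells in the member values was not tested.

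Additional border macrophage markers had medians of 0.00, 0.05 and -0.01 log2 over 13 genes, 3 of them past the filter. In all 3 tumour arrays 4 lay above and 4 below control, against 33.2% and 22.5% of all genes. Neither limma test called any, and 0 had an unadjusted p under 0.05. Cbr2 lay -0.59, -0.28 and -0.41 from control, Folr2 -0.48, -0.34 and -0.01, Clec10a -0.36, -0.23 and -0.05 and Clec4n 0.22, 0.30 and 0.21, all 4 below the filter value. At 2M 7 of the 13 lay below control, against 43.7% of all genes.

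Another glial list was also low at 2M. Oligodendrocyte markers had medians of -0.15, 0.12 and -0.34 log2. At 2M 7 of 8 lay below control and were lowest there, against 43.7% and 19.7% of all genes. The mean level of the 8 was 10.14, 10.04, 10.32 and 9.76. Opalin, a membrane protein of myelinating oligodendrocytes, stood at 7.60, 7.22, 7.61 and 5.88, Mag at 10.55, 10.26, 10.63 and 10.00 and Cnp at 11.17, 11.00, 11.15 and 10.74, while Mobp lay 0.26, 0.47 and 0.53 above control. This mean was highest at 1M and lowest at 2M, as P2ry13 and Siglech were. The part of oligodendrocyte content in the lower microglial values at 2M was not tested.

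Astrocyte, neuron and endothelial markers had medians of -0.02, -0.01 and 0.06 log2 there over 9, 8 and 8 genes. Single genes stood apart, with the water channel gene Aqp4 at -0.50, -0.33 and -0.65, Fgfr3 at 0.27, 0.43 and 0.29, and the endothelial receptor Tek at -0.31, -0.32 and -0.33. The remaining genes named by the rule lay nearer to control, with Aldh1l1 at 0.16, S100b at -0.13, Tubb3 at -0.19, Syt1 at 0.15, Stmn2 at -0.09, Nefl at -0.09, Pecam1 at 0.21, Cldn5 at -0.17 and Abcb1a at 0.14 on average. Of 9 markers of hypothalamic neurons, 6 lay above control in all 3 tumour arrays and 1 lay below, against 33.2% and 22.5% of all genes. The medians of the 9 were 0.31, 0.29 and 0.36 log2, led by Oxt, Avp, Otp and Pmch at 0.74, 0.53, 0.37 and 0.36 on average. None of the lists of other cell types held a gene past limma. In the tumour comparison by limma, 10.8% of all tested genes had an unadjusted p under 0.05. It was reached by 6 of 9 tested hypothalamic, 2 of 9 astrocyte (Aqp4 and Fgfr3) and 1 of 8 oligodendrocyte genes (Mobp). The same held for 1 of 7 endothelial (Tek), 1 of 1 erythroid (Alas2) and 0 of 8 neuron genes. In the trend an unadjusted p under 0.05 was reached by 3 of 8 oligodendrocyte (Opalin, Mobp and Cnp), 1 of 9 astrocyte (Aqp4) and 1 of 9 hypothalamic genes. Of all tested genes 6.52% reached it. The part of dissection in the member values was not tested.

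**Figure D4:**
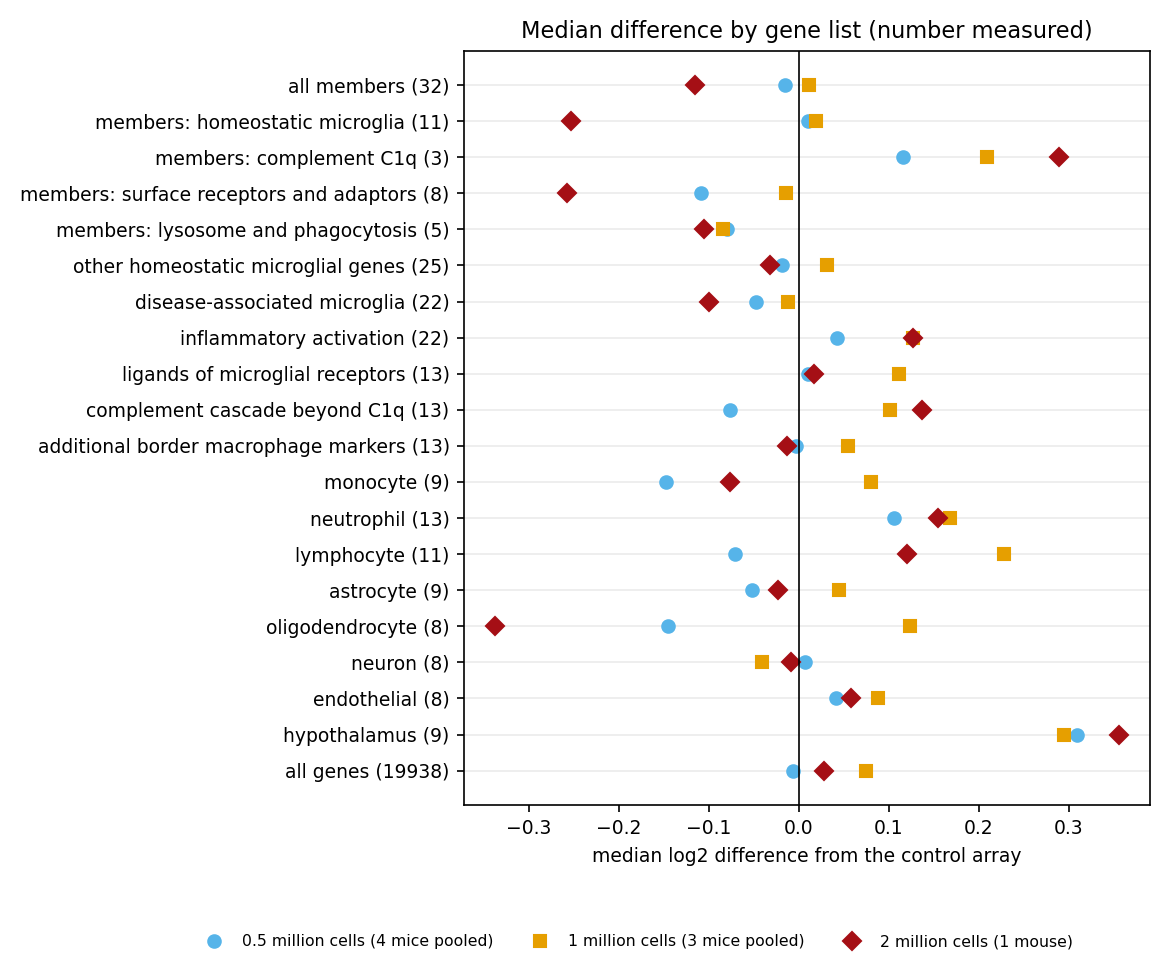
Median difference from the control array (x axis, log2) over the measured genes of each list shown (y axis, with their number), with a circle for 0.5M, a square for 1M and a diamond for 2M, 1 array each. At 2M the homeostatic and receptor members and the oligodendrocyte markers lie furthest left, and the C1q genes and the hypothalamus markers furthest right.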

How the data were processed

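Per the submitters' processing notes, the authors deposited RMA values on a log2 scale, with 1 column for each array and 1 line for each probe set. RMA background-corrects the probes and gives all arrays the same intensity distribution, so a shift shared by all transcripts is removed. The sources used here give neither its version nor a genome build. Of 35556 probe sets, 21789 carried 1 gene symbol in the platform annotation. For genes with several, the probe set with the highest mean was used. The columns with no sample numbered 0.

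Differences were taken from the control array. Genes whose mean reached the 40th percentile (11963) were tested by lmFit and eBayes of limma 3.58.1 (R 4.3.3), two-sided, at 0.05 after Benjamini-Hochberg adjustment over all of them. The tumour comparison by limma was tried on simulated data with shifts larger than any member difference. Power at the sizes of the members was not tested, nor was the trend fit simulated. Python 3.11.15, pandas 2.3.3 and matplotlib 3.10.9 gave the counts and plots. Alternatives were the filter, probe set averaging, array medians, cyclic loess, array weights, the variance prior, the size threshold and leaving out arrays. The number of arrays limits the precision. Promoters came from RefSeq (GRCm38.p6), with 25 of 32 members matched by symbol. The members and lists were chosen with earlier results of these data known. Every member is named, and of each other list the 4 genes furthest from control on average. The 4 letter strings, the counts of lowest arrays and the counts below control at 2M were chosen after the values were seen.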

Additional observations from a re-analysis of the deposited data

Results flagged for a closer look

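P2ry13 and P2ry12 lay above control at 1M and below it at 2M, each by at least 0.2 log2, a size set after the values were seen. P2ry13 was 0.22 log2 above control at 1M and -0.66 from it at 2M, so the 2M value lay -0.88 log2 from that at 1M. P2ry12 was 0.34 above and -0.25 from control, a gap of -0.59 log2. The differences between cell numbers were not tested, since each was 1 array, and the 2M array was 1 mouse.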

How the results depend on the processing

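The count of members past limma was 0 in both tests under the 10 alternatives run for the tumour comparison and the 11 for the trend. The lowest adjusted p of a member ranged from 0.267 to 0.849 in the first, and from 0.058, without the 1M array, to 0.78 in the second. With 0.3 log2 in place of 0.50, the members that far from control numbered 3, 4 and 9 at 0.5M, 1M and 2M. Leaving out 1 tumour array gave 7 to 13 members higher and 12 to 16 lower in the remaining arrays, and a median of -0.08 to 0.00 log2. The matching shares of all genes were not computed for these counts. Without 2M the median of the mean difference was 0.00 and 13 members were higher, so the lower set median rests on that array. The medians at 0.5M and 1M, near 0, changed sign with array centring, 0.01 and -0.01. At 2M the median was -0.11 to -0.14, 20 to 22 members were lowest there under the other normalizations, added after the data were seen, and the largest move of a member by normalization was 0.07 log2. The mean difference of 6 members, P2ry12, P2ry13, Siglech, Selplg, Fcrls and Mrc1, changed sign when 1 array was left out. That of the C1q median stayed at 0.15 to 0.25. No member had several probe sets, so averaging left their values as they were. No paired analysis was possible because each group was 1 array with no replicate number in the labels. Members below the filter rest on low signals.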
